A study of Mus musculus with 4 samples.

Results

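The 60 genes described here encode the machinery of mitosis: the cyclin and kinase that start it, the spindle and its motors, the kinetochore, the spindle checkpoint, the proteins that separate sister chromatids, and those that divide the cell. They were taken from a list of gene symbols for mitotic functions, drawn up with earlier results of these data known, and all 60 were found among 51912 Ensembl genes measured by RNA-seq in mouse long-term haematopoietic stem cells. Each RNA-seq library was made from total RNA of cells pooled from 3 C57BL/6 animals aged 8 to 12 weeks, sorted as Lineage-negative, Sca-1-positive, c-Kit-positive (LSK) cells without surface CD34 and Flk2. There were 2 wild-type (WT) libraries and 2 libraries from animals labelled Fam122a KO. Whether the knockout was germline or restricted to blood cells, and by which allele or Cre driver, is not given in the sources used here. Fam122a encodes an inhibitor of the phosphatase PP2A.

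A dividing cell enters mitosis when Cdk1 bound to cyclin B becomes active. Spindle microtubules then attach to kinetochores, protein assemblies built on the centromere of each chromatid, and the spindle checkpoint holds the cell until every kinetochore is attached. The anaphase-promoting complex (APC/C) with Cdc20 then marks securin and cyclin B for destruction, separase cuts cohesin, and the cell is cleaved in cytokinesis. Most of these genes are transcribed late in the cell cycle, under the MuvB complex with B-Myb and FoxM1, through a promoter element named the cell cycle homology region (CHR) and through CCAAT boxes bound by NF-Y. Long-term stem cells are known for being mostly out of cycle, so transcripts of this set are usually low in them.

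Values are FPKM, fragment counts divided by transcript length and by the sequencing depth of the library. Fam122a itself was at 18.4 FPKM in WT replicate 1, at 7.46 in WT replicate 2 and at 0 in both KO libraries. WT replicate 2 was unlike the rest. In it 53.9% of the summed FPKM lay on assembled features without an Ensembl identifier, against 1.74% to 9.14% in the others, and the median of 79 ribosomal protein genes was 13.1 FPKM against 299.8 to 436. The spacing of the low values implied about 2520000 fragments in WT replicate 2, 4260000 in WT replicate 1, 6840000 in KO replicate 1 and 5900000 in KO replicate 2. Comparisons were made with all 4 libraries and again leaving WT replicate 2 out, which leaves WT replicate 1 alone on its side. The labelled cell type was compared with 15 stem cell genes. Their summed FPKM was 665 in WT replicate 1, 587 in WT replicate 2, 634 in KO replicate 1 and 624 in KO replicate 2. The sums hide differences between genes, and the medians were 31.9, 3.71, 23.0 and 19.2 in the same order. Mecom alone was at 254 FPKM in WT replicate 2. Both KO libraries were below WT replicate 1 for 6 of the 15 and above it for 5. Of all 13848 genes tested, both were below it for 4937 and above it for 6722. Tek was at 41.5 FPKM in WT replicate 1 and at 4.43 and 2.74 in the KO libraries. Ly6a, which encodes the Sca-1 protein of the sort, was at 201 FPKM in WT replicate 1, at 229.9 and 205 in the KO libraries and at 0 in WT replicate 2. Cd34, whose protein the sort excludes, was at 179 FPKM in WT replicate 1, 18.2 in WT replicate 2, 87.7 in KO replicate 1 and 62.1 in KO replicate 2. Flt3, which encodes the Flk2 protein that the sort also excludes, was at 26.2, 16.1, 36.2 and 24.7 FPKM in the same libraries.

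The mitosis genes were higher in both KO libraries than in WT replicate 1 nearly throughout the list, by a modest amount, and no single gene passed the test. Their summed level was 2882 FPKM in WT replicate 1, 517 in WT replicate 2, 3866 in KO replicate 1 and 4912 in KO replicate 2. Both KO libraries lay above WT replicate 1 for 58 of the 60 genes, where 48.5% of all 13848 genes tested had that order. The exceptions were Mad2l1, lower in both KO libraries, and Cdk1, lower in one and higher in the other. The ratio of the mean KO level to WT replicate 1 had a median of 1.60 over the 60 genes, was at least 2 for 11 of them and at least 1.5 for 36. In bulk RNA, more dividing cells in a pool and more of these transcripts per cell cannot be told apart. Summed erythroid and B lineage marker levels had the same order over WT replicate 1, KO replicate 1 and KO replicate 2 as the summed mitosis genes, and their part in the result was not tested.

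**Figure D1:**
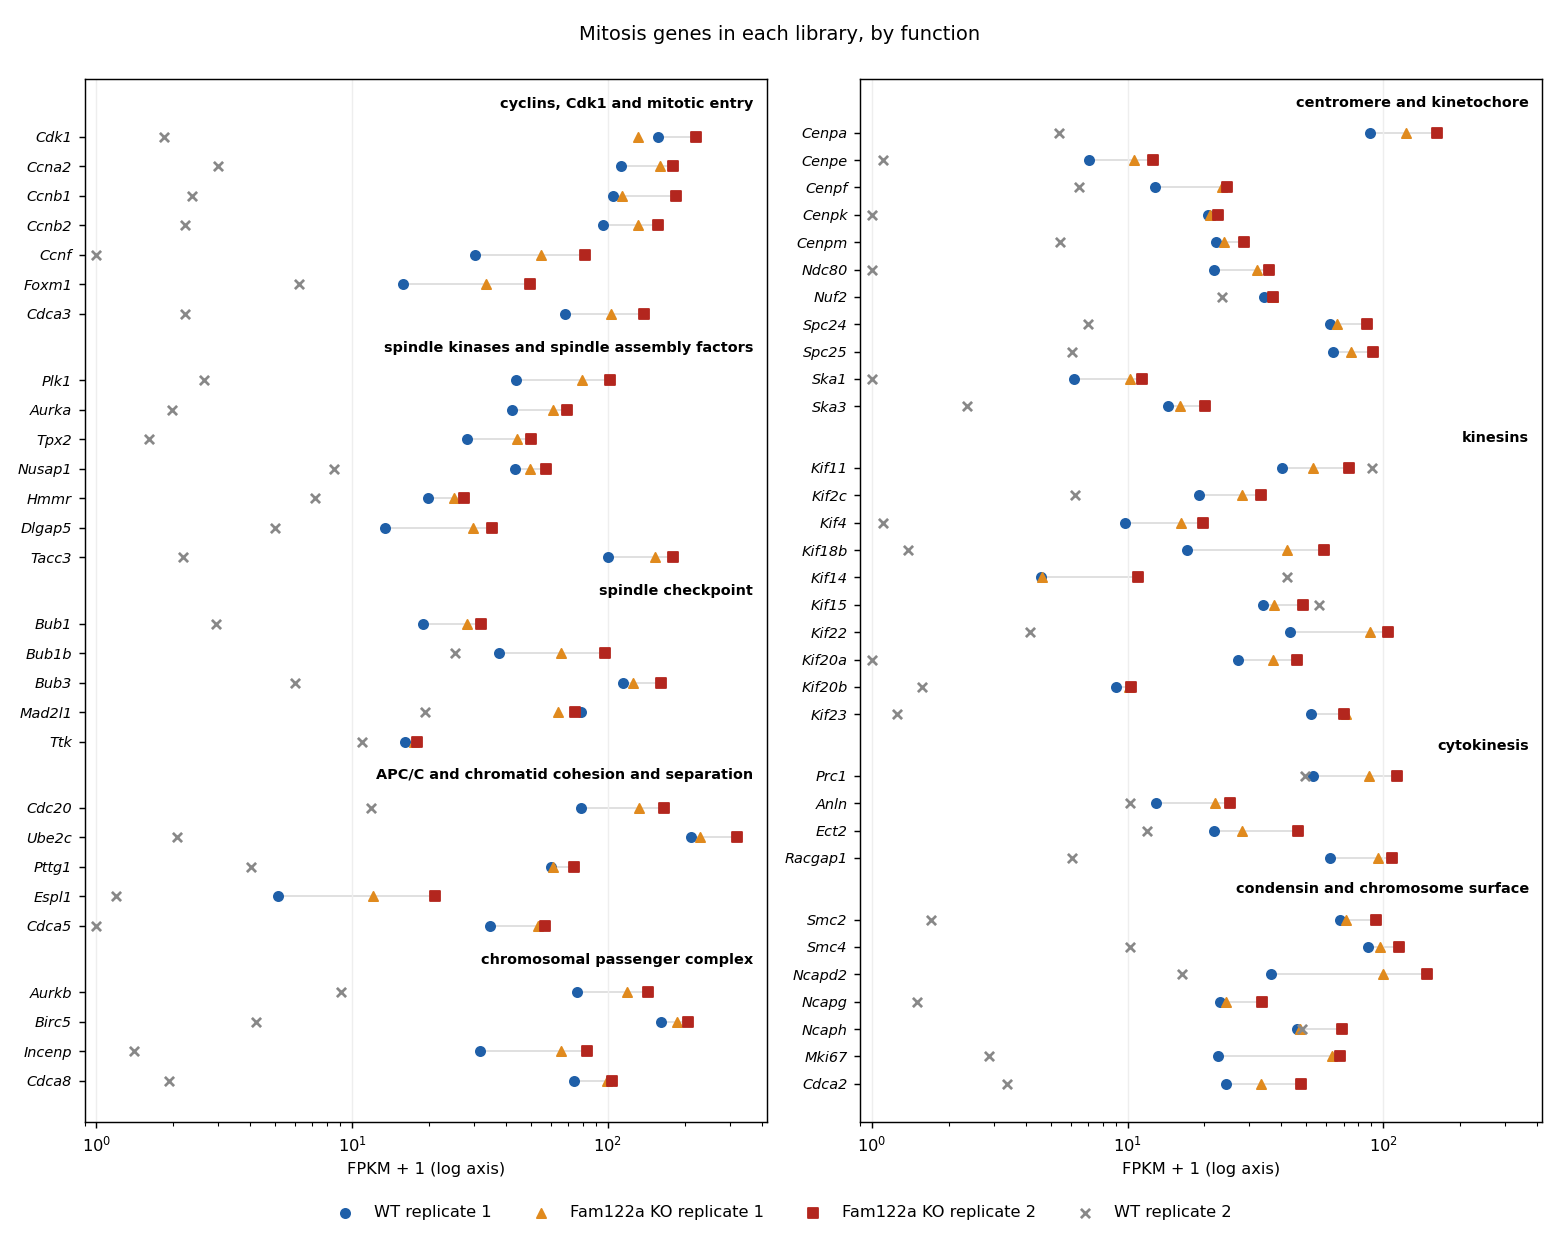
FPKM (log axis) of each of the 60 mitosis genes, in rows by function, in the 4 libraries, 1 point per library. WT replicate 2 is the lowest point for 56 genes, and the KO points lie to the right of WT replicate 1 for 58 genes.

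Differences were tested with limma on log2(FPKM + 1), a scale that understates the change of low genes, with p-values adjusted by the Benjamini-Hochberg method over all genes tested and a threshold of 0.05. Against WT replicate 1, with the lone WT library assumed to vary like the KO pair, the difference of the KO mean had a median of 0.64 over the 60 genes and of 0.12 over all 13848 genes. limma called 0 of the 60, where it called 0.181% of all genes higher and 1.42% lower. At an unadjusted p under 0.05, 31 of the 60 were higher and 0 lower, where 17.6% of all genes were higher and 11.5% lower. The lowest adjusted p among the 60 genes in limma was 0.0533, for Mki67. Since a single WT pool stood on one side, these p-values measure only the spread between the KO pools.

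With all 4 libraries the median difference was 2.28, against 0.22 over 18214 genes, and 58 of the 60 were above 0, all but Kif14 and Kif15. Both KO libraries lay above both WT libraries for 54 of the 60, where 30.8% of all genes had that order. WT replicate 2 was the lowest library for 56 of the 60 and for 48.4% of all genes. For such genes this order adds nothing to that against WT replicate 1. limma called 0 of the 60 and 0% of all genes, and the lowest adjusted p of the 60 was 0.247. At an unadjusted p under 0.05 in limma, 0 of the 60 passed, where 1.28% of all genes were higher and 21.1% lower. The median was 0.64 without WT replicate 2 and 3.81 without WT replicate 1. Without WT replicate 1, 57 of the 60 genes were above 0, where 67.2% of all 13875 genes were. Kif14, at -2.57, was among those below. How the list stood therefore turned on which WT library was used, and the values below are given against WT replicate 1, with the level in WT replicate 2 beside them. Where a pair of values is given for a genotype, replicate 1 comes first.

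In WT replicate 2, 37 of the 60 genes were under 5 FPKM. Ccnf, Cdca5, Cenpk, Ndc80, Ska1 and Kif20a were listed at 0, where 3 fragments would have given between 0.157 and 0.624 FPKM. The library was not uniformly low. Kif11 was at 89.8 FPKM there, Kif15 at 55.1, Prc1 at 48.3, Ncaph at 47.2, Kif14 at 41.2, Bub1b at 24.3 and Nuf2 at 22.4, and no other member reached 20. For Kif11, Kif14 and Kif15 this was above all 3 other libraries. These 7 genes were higher in KO replicate 1 than in WT replicate 1 by a median of 0.15 and in KO replicate 2 by a median of 0.86, against 0.50 and 0.77 for the other 53.

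The promoters of the genes showed what the set shares in sequence. RefSeq promoter windows, from 250 bases before to 50 bases after the transcription start (GRCm38.p6), were matched for 49 of the 60 genes, in 54 windows. The CHR was searched as TTTGAA or TTCGAA on either strand, and the NF-Y box as CCAAT on either strand. A CHR and a CCAAT match can share 1 letter at their ends. A CHR match was found in 39 of the 49 genes (79.6%), against 21.7% of all 27025 genes with a window and 17.1% of the 10033 of them that were tested. TTTGAA was found in 37 (75.5%, against 20.2% of all genes) and TTCGAA in 3 (6.12%, against 1.80%). A CCAAT box was found in 35 (71.4%, against 41.1%), and both motifs in 32 (65.3%, against 8.61%). The CHR match began within 50 bases of the start, on either side, in 34 of 49 genes (69.4%, against 6.12% of all). In 17 of 49 (34.7%, against 1.10%) a CCAAT box began 20 to 40 bases before a CHR match, a spacing chosen after the positions were seen. A match is a description of letters and not evidence of binding.

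The promoters of 6 genes with a CCAAT box before a CHR near the start are printed for the 100 bases before the start, 5′ to 3′ on the strand of the gene, with CHR matches (TTTGAA, or TTCAAA where it lies on the other strand) and CCAAT boxes (CCAAT or ATTGG) in capitals. They belong to Cdk1 (chr10:69352913-69353012, minus strand), Cdc20 (chr4:118437344-118437443, minus strand), Ube2c (chr2:164769829-164769928, plus strand), Kif22 (chr7:127042421-127042520, minus strand), Espl1 (chr15:102296193-102296292, plus strand) and Kif11 (chr19:37376282-37376381, plus strand).
Cdk1: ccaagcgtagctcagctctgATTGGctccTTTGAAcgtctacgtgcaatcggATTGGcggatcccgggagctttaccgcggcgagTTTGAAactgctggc
Cdc20: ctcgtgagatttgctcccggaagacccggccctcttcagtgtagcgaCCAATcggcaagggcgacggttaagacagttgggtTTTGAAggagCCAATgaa
Ube2c: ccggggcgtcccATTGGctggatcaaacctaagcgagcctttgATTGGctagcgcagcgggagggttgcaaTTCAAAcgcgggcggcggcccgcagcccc
Kif22: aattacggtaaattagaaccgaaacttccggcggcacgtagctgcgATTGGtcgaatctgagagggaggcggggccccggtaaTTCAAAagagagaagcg
Espl1: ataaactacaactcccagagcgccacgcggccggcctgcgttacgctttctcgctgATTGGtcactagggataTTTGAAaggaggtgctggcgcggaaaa
Kif11: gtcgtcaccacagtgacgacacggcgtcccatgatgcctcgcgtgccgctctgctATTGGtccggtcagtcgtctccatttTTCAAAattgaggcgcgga
Mki67 (chr7:135716380-135716579, minus strand) and Ncapd2 (chr6:125191587-125191786, minus strand) are printed for 200 bases because they had the smallest adjusted p and the largest difference of the 60 genes, and their CHR matches lie farther from the start. Mad2l1 (chr6:66535021-66535220, plus strand) is printed as the gene that was lower in both KO libraries than in WT replicate 1, and it holds neither motif.
Mki67: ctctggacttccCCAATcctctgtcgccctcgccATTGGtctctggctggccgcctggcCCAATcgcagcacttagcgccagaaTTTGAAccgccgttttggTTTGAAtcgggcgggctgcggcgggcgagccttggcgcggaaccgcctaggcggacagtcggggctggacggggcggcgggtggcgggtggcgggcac
Ncapd2: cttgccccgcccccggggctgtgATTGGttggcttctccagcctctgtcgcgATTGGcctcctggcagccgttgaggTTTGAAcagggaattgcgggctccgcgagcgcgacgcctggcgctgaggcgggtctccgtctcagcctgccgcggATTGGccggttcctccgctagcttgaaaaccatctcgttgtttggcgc
Mad2l1: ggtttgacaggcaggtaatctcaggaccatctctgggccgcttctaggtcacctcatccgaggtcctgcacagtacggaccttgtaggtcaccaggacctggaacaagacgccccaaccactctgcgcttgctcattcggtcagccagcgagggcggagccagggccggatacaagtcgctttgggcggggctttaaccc
Each of these promoters except that of Mad2l1 holds a CCAAT box upstream of a CHR.

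**Figure D2:**
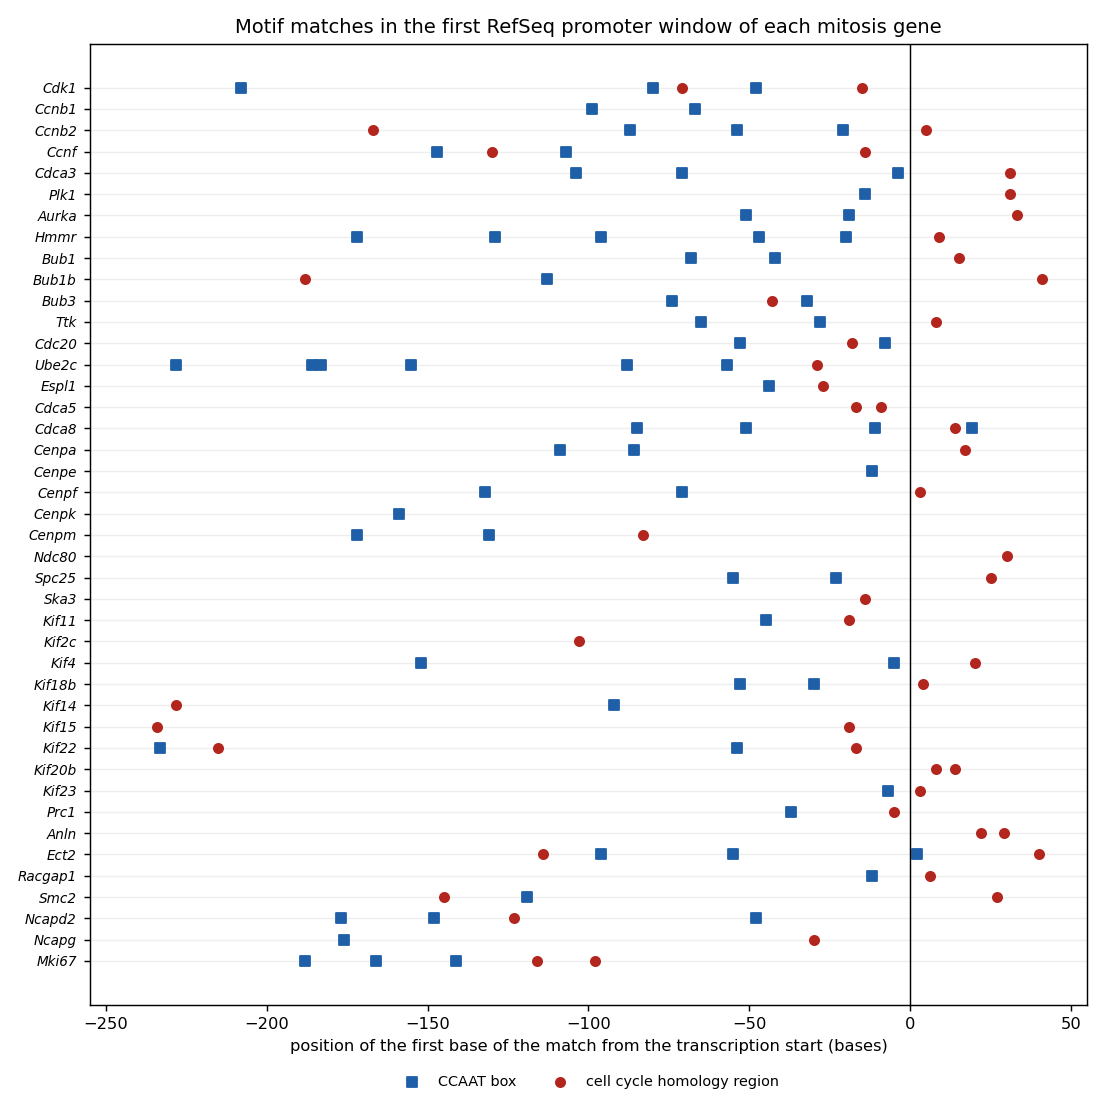
Position of each CHR match (red circles) and CCAAT box (blue squares), in bases from the transcription start, in the first RefSeq window of each mitosis gene with a match. Most red circles lie within 50 bases of the start, with blue squares before them.

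The KO difference can be set beside the presence of a CHR match. The 39 genes with a match differed from WT replicate 1 by a median of 0.65, from 0.12 to 1.74, and the 10 without a match by a median of 0.29, from -0.19 to 0.73. The ranges overlap, and this split was not tested. The 10 genes without a match were Mad2l1, Nuf2, Nusap1, Ncaph, Tacc3, Pttg1, Birc5, Ccnb1, Cenpk and Cenpe. The promoters of Ccnb1, Cenpk and Cenpe hold a CCAAT box but no CHR in this window.

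The 7 genes of mitotic entry had median differences from WT replicate 1 of 0.50 in KO replicate 1 and 0.82 in KO replicate 2. Foxm1, the transcription factor that activates many of the other genes, was at 14.8 FPKM in WT replicate 1, 5.20 in WT replicate 2, 32.4 in KO replicate 1 and 48.8 in KO replicate 2. Both KO values were more than 2 times WT replicate 1, a difference of 1.36 ± 0.31 (SE; limma adjusted p = 0.102). Cdk1, the kinase that drives entry into mitosis, was at 157 FPKM in WT replicate 1, 0.840 in WT replicate 2, 131 in KO replicate 1 and 221 in KO replicate 2. WT replicate 1 lay between the KO libraries, and the difference of 0.12 ± 0.36 (SE; limma adjusted p = 0.851) was smaller than the gap between them. Ccnb1, which encodes cyclin B1, the partner of Cdk1, was at 104 and 1.37 FPKM (WT) against 113 and 184 (KO). KO replicate 1 was close to WT replicate 1, and KO replicate 2 was well above it. The other genes were Ccna2 and Ccnb2, which encode cyclins A2 and B2, Ccnf, a subunit of a ubiquitin ligase, and Cdca3. Their differences from WT replicate 1 lay between 0.58 and 1.14, and the KO libraries were above it for each of them.

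**Figure D3:**
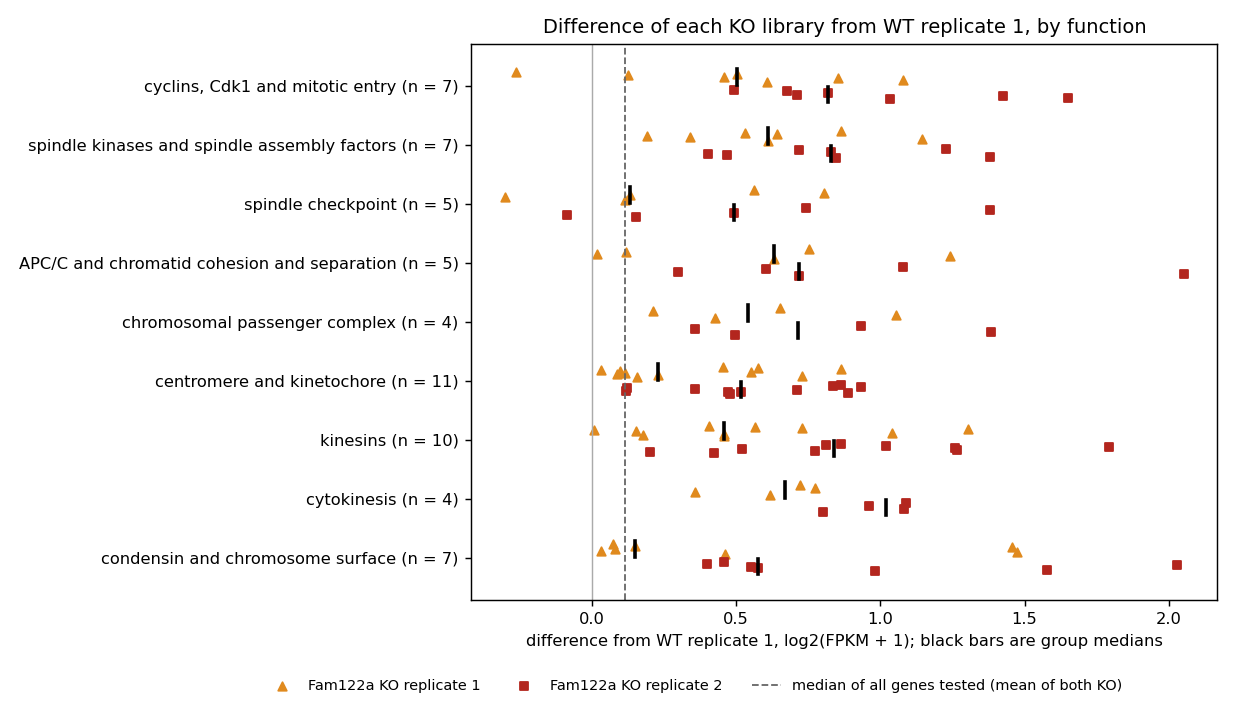
Difference of each KO library from WT replicate 1, in log2(FPKM + 1), for the genes of each functional group, with black bars at group medians and a dashed line at the median of all genes tested. KO replicate 2 has the larger median in all 9 groups, and checkpoint, kinetochore and condensin genes have the smallest medians in KO replicate 1.

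Spindle kinases and assembly factors, 7 genes, were higher by a median of 0.61 in KO replicate 1 and 0.83 in KO replicate 2. Plk1, a kinase of centrosome maturation and spindle assembly, was at 42.6 and 1.63 FPKM (WT) against 78.5 and 101 (KO). Both KO values stood above WT replicate 1, by a difference of 1.05 ± 0.22 (SE). Dlgap5, which stabilises microtubules near chromosomes, was at 12.5 and 4 FPKM (WT) against 28.8 and 34.1 (KO). It had the largest difference of the group, 1.26 ± 0.22 (SE; limma adjusted p = 0.0829). Tacc3, which cross-links spindle fibres, had the highest level of the group, at 98.9 and 1.18 FPKM (WT) against 152 and 179 (KO). The smallest difference in the group was that of Nusap1, a microtubule-bundling protein, at 42.4 and 7.53 FPKM (WT) against 48.6 and 56.4 (KO). Aurka, a centrosomal kinase, Tpx2, which activates it, and Hmmr differed by 0.63, 0.74 and 0.41.

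The spindle checkpoint group of 5 genes was uneven. Its median was 0.13 in KO replicate 1 and 0.49 in KO replicate 2. Bub1b, which encodes the checkpoint protein BubR1, was at 36.4 and 24.3 FPKM (WT) against 64.4 and 96.5 (KO), a difference of 1.09 ± 0.30 (SE; limma adjusted p = 0.123). Bub1, a kinase that recruits the other checkpoint proteins, was at 18.0 and 1.93 FPKM (WT) against 27.1 and 30.8 (KO). For both, the KO libraries were above WT replicate 1. Mad2l1, which encodes Mad2, the protein that inhibits Cdc20, was at 77.8 and 18.3 FPKM (WT) against 63.0 and 73.2 (KO). It alone was lower in both KO libraries than in WT replicate 1, by a difference of -0.19 ± 0.18 (SE; limma adjusted p = 0.512). Bub3, a binding partner of Bub1 and BubR1, was at 114 and 4.98 FPKM (WT) against 125 and 161 (KO), and Ttk, the kinase Mps1, differed by 0.13.

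Among 5 genes of the APC/C and chromatid cohesion and separation, the medians were 0.63 in KO replicate 1 and 0.72 in KO replicate 2. Espl1, which encodes separase, was at 4.11 and 0.190 FPKM (WT) against 11.1 and 20.2 (KO). It differed by 1.65 ± 0.44 (SE; limma adjusted p = 0.121), with a wide gap between the KO libraries. Pttg1, which encodes securin, the inhibitor of separase, was at 59.1 and 3.02 FPKM (WT) against 59.9 and 73.0 (KO). KO replicate 1 was level with WT replicate 1 for securin. Cdc20, the activator of the APC/C, was at 77.8 and 10.9 FPKM (WT) against 132 and 166 (KO), a difference of 0.92 ± 0.21 (SE; limma adjusted p = 0.0999). Ube2c, its ubiquitin-conjugating enzyme, had the highest level of the 60 genes, at 209.9 and 1.06 FPKM (WT) against 228 and 319.7 (KO). Cdca5, or sororin, which protects cohesion, differed by 0.67.

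The chromosomal passenger complex corrects faulty attachments and acts again in cytokinesis. All 4 of its subunits were above WT replicate 1 in both KO libraries, with medians of 0.54 and 0.71. Incenp, the scaffold, was at 30.7 and 0.400 FPKM (WT) against 64.8 and 81.8 (KO), a difference of 1.22 ± 0.21 (SE; limma adjusted p = 0.0840). Aurkb, the kinase, was at 74.5 and 8.03 FPKM (WT) against 118 and 143 (KO). Cdca8, or borealin, was at 73.0 and 0.920 FPKM (WT) against 98.5 and 103 (KO). Birc5, or survivin, was at 160.2 and 3.20 FPKM (WT) against 186 and 206 (KO). The order of the difference within the complex was Incenp, Aurkb, Cdca8 and Birc5, and Birc5, with the highest level, had the smallest difference, of 0.28 ± 0.16 (SE; limma adjusted p = 0.311).

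Centromere and kinetochore genes, 11 in all, were above WT replicate 1 in both KO libraries without exception, but by little in KO replicate 1, where the median was 0.23, and by 0.52 in KO replicate 2. Of these, 3 (27.3%) passed an unadjusted p of 0.05, against 17.6% of all genes higher at that p; with 11 genes this is near the background. The Ndc80 complex binds the microtubule and has 4 subunits. Ndc80 was at 20.8 and 0 FPKM (WT) against 31.0 and 34.7 (KO), Nuf2 at 33.3 and 22.4 (WT) against 36.1 and 36.2 (KO). Spc24 was at 61.1 and 6.00 FPKM (WT) against 64.9 and 85.2 (KO), and Spc25 at 62.7 and 5.06 (WT) against 73.7 and 90.2 (KO). The difference from WT replicate 1 was 0.63 for Ndc80, 0.37 for Spc25, 0.28 for Spc24 and 0.12 for Nuf2. Cenpa, the histone variant that marks centromeres, had the highest level of the group, at 88.2 and 4.41 FPKM (WT) against 121 and 161 (KO). Cenpf, a kinetochore protein of the late cell cycle, had the largest difference, 0.90 ± 0.21 (SE; limma adjusted p = 0.106), at 11.8 and 5.46 FPKM (WT) against 22.3 and 23.4 (KO). Cenpk, of the inner kinetochore, had the smallest, at 19.6 and 0 FPKM (WT) against 20.1 and 21.5 (KO), so that all 3 libraries other than WT replicate 2 were close together. Cenpe, a kinetochore motor, Cenpm, and the microtubule-binding Ska1 and Ska3 differed by 0.71, 0.23, 0.81 and 0.32.

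Kinesins, the motor proteins of the spindle and midzone, numbered 10. Their medians were 0.46 in KO replicate 1 and 0.84 in KO replicate 2. Kif18b, which limits the length of astral microtubules, was at 16 and 0.380 FPKM (WT) against 41.0 and 57.9 (KO), a difference of 1.55 ± 0.28 (SE; limma adjusted p = 0.0860). Kif22, a motor on chromosome arms, was at 42.3 and 3.15 FPKM (WT) against 88.0 and 103 (KO), a difference of 1.15 ± 0.18 (SE; limma adjusted p = 0.0767). Both genes were at least 2 times WT replicate 1 in both KO libraries. Kif20b was at 7.98 and 0.570 FPKM (WT) against 9.15 and 9.34 (KO), the smallest difference of the group. Kif14, which acts in cytokinesis, was at 3.58 and 41.2 FPKM (WT) against 3.61 and 9.96 (KO). WT replicate 1 and KO replicate 1 were alike for Kif14 and WT replicate 2 was the highest. Kif23, of the midzone, was the one member of the 60 that was lower in KO replicate 2 than in KO replicate 1, at 69.0 against 70.8 FPKM. The spindle motor Kif11 and the related Kif15, Kif2c, Kif4 and Kif20a differed from WT replicate 1 by 0.64, 0.34, 0.69, 0.87 and 0.62.

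The 4 cytokinesis genes had the largest group medians, 0.67 in KO replicate 1 and 1.02 in KO replicate 2. Prc1, which bundles midzone microtubules, was at 52.2 and 48.3 FPKM (WT) against 86.7 and 112 (KO). Here the WT libraries were alike, and the difference from WT replicate 1 was 0.90 ± 0.22 (SE; limma adjusted p = 0.110). Racgap1, of the centralspindlin complex, was at 61.2 and 5.07 FPKM (WT) against 94.3 and 107 (KO). Anln, an actin-binding scaffold of the cleavage furrow, and Ect2, which activates RhoA there, differed by 0.87 and 0.72.

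The condensin and chromosome surface group of 7 genes was uneven too. Its medians were 0.15 in KO replicate 1 and 0.58 in KO replicate 2, and 2 of 7 genes (28.6%, against 17.6% of all genes) passed an unadjusted p of 0.05. Mki67, which encodes the proliferation marker Ki-67 that coats mitotic chromosomes, was at 21.6 and 1.86 FPKM (WT) against 61.8 and 66.6 (KO). Its KO libraries were close to each other and well above WT replicate 1, a difference of 1.53 ± 0.17 (SE). Ncapd2, a subunit of condensin I, was at 35.3 and 15.4 FPKM (WT) against 98.7 and 147 (KO), the largest difference of the 60 genes at 1.74 ± 0.29 (SE; limma adjusted p = 0.0805). The other condensin subunits lay near WT replicate 1 in KO replicate 1. Smc2 was at 66.9 and 0.700 FPKM (WT) against 70.5 and 92.4 (KO), and Smc4 at 86.5 and 9.20 (WT) against 96.1 and 114 (KO). Ncapg was at 22 and 0.5 FPKM (WT) against 23.3 and 32.7 (KO), and Ncaph at 45.1 and 47.2 (WT) against 46.2 and 67.8 (KO). The differences of these 4 subunits of the same complex from WT replicate 1 were 0.27, 0.28, 0.32 and 0.30. Cdca2, or Repo-Man, which targets a phosphatase to chromatin, differed by 0.72.

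Within the KO pair the genes were higher in KO replicate 2 than in KO replicate 1 for 59 of the 60, where 52.8% of all genes tested had that order, by a median of 0.28 against 0.02 over all genes. The order WT replicate 1, KO replicate 1, KO replicate 2 held for 57 of the 60, against 28.8% of all genes. The libraries of the same genotype thus differed in the same direction across the list. For 21 of the 60 genes the signed difference of KO replicate 2 from KO replicate 1 exceeded that of KO replicate 1 from WT replicate 1. Mad2l1 is counted among them, at 0.21 against -0.30, although its gap between the KO libraries was smaller in size. The share of all genes with this order was not counted. In mitotic entry genes the gap between the KO libraries had the largest median, 0.57. This is a comparison of 1 library with 1 library and has no test.

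**Figure D4:**
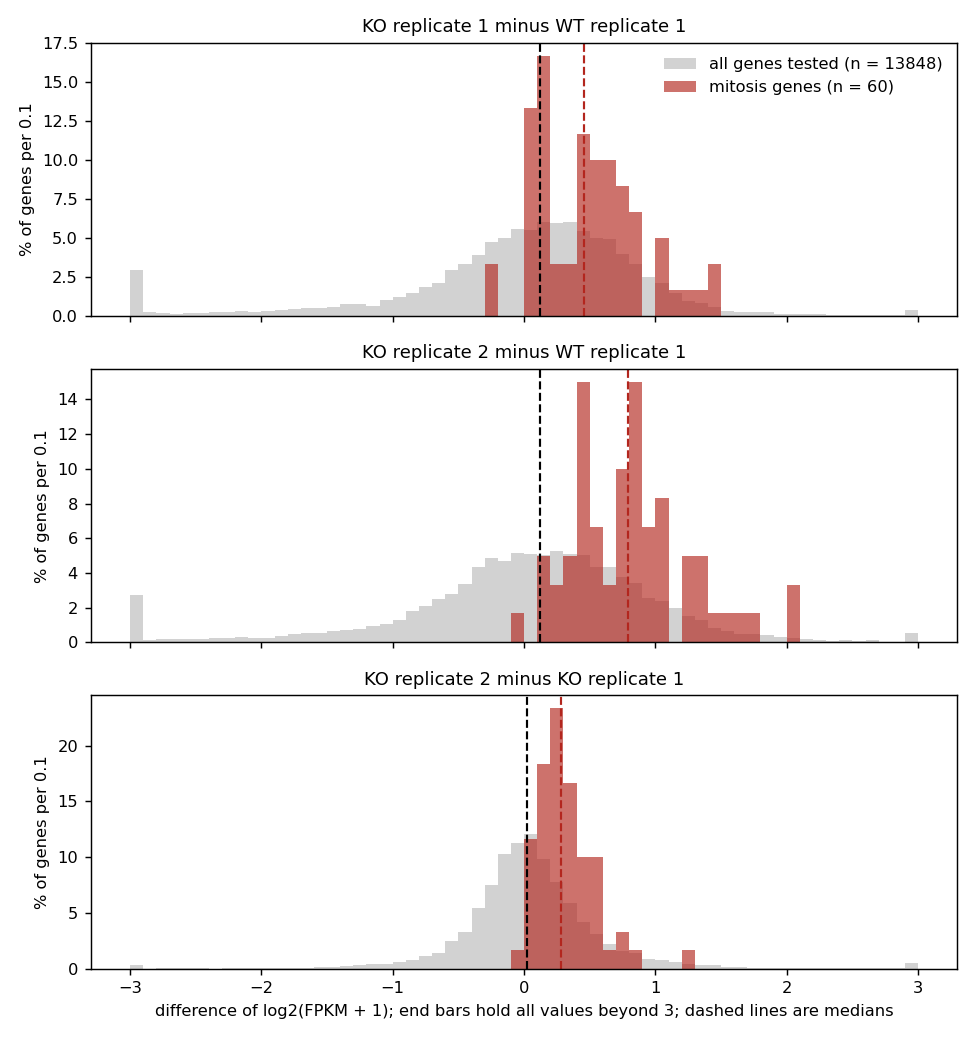
Distribution of the difference in log2(FPKM + 1) for the 60 mitosis genes (red) and all 13848 genes tested (grey), as percent of genes per bin of 0.1, for KO replicate 1 against WT replicate 1, KO replicate 2 against WT replicate 1, and KO replicate 2 against KO replicate 1. The red medians are 0.46, 0.79 and 0.28 and the grey medians 0.12, 0.12 and 0.02.

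How many members passed the test depended on how the WT and KO libraries were brought to one scale. When each library was scaled to the same summed FPKM, which moved the median difference of all genes from 0.12 to 0.33, limma called 14 of the 60 genes higher than in WT replicate 1, where 8.19% of all genes were called higher. These were Mki67, Kif22, Ncapd2, Incenp, Kif18b, Dlgap5, Plk1, Cdc20, Racgap1, Tacc3, Aurkb, Foxm1, Prc1 and Cdca5, with limma adjusted p-values from 0.0273 to 0.0492. With no filter on low values it called Mki67 and Cenpf, where 2.52% of all genes were called higher, and with equal median FPKM it called Mki67, where 0.585% were. The median of the 60 genes relative to all genes was 0.52 on the deposited scale, 0.54 with equal summed FPKM, 0.52 with equal median FPKM, 0.43 with quantile normalization and 0.87 with no filter, where the median of all genes was -0.23. Mad2l1 changed sign, to 0.038, under the summed FPKM scaling, and Cenpk and Nuf2, at -0.028 and -0.0087, under quantile normalization.

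Another 81 genes of mitosis that are no part of the 60 were measured, among them other genes of the APC/C, the kinetochore and the centrosome. Their median difference from WT replicate 1 was 0.43, and 50 of the 81 (61.7%) were above it in both KO libraries, against 48.5% of all genes. Another 16 of the 81 were below it in both, where 4937 of all 13848 genes tested were. limma called 0 of the 81; 19 (23.5%) were higher and 2 lower at an unadjusted p under 0.05, against 17.6% and 11.5% of all genes. Fzr1, which encodes Cdh1, the other activator of the APC/C, was at 33.6 and 1.01 FPKM (WT) against 83.1 and 125 (KO), a difference of 1.57 (limma adjusted p = 0.0895). Ckap5, a microtubule polymerase, was at 19.5 and 4.43 FPKM (WT) against 46.6 and 67.7 (KO). Sapcd2 was at 6.70 and 0 FPKM (WT) against 17.8 and 34.0 (KO), a difference of 1.74 ± 0.45 (SE; limma adjusted p = 0.117). The lower genes included Zwilch, of the kinetochore complex that recruits dynein, at 25.6 and 14.9 FPKM (WT) against 10.2 and 7.94 (KO), a difference of -1.41 ± 0.28 (SE; limma adjusted p = 0.0908). Shcbp1 was at 85.4 and 137 FPKM (WT) against 37.2 and 49.7 (KO), and Cenpp, of the inner kinetochore, at 26 and 70.6 (WT) against 12.0 and 19.6 (KO). In their promoters, 34 of 69 genes with a window (49.3%) held a CHR match.

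Among markers of other blood cells, the summed erythroid and B lineage levels had the same library order as the summed mitosis genes. The summed level of 15 erythroid genes was 52341 and 243.6 FPKM (WT) against 60428 and 80647 (KO). The order WT replicate 1, KO replicate 1, KO replicate 2 held for 13 of them, against 28.8% of all genes. The summed level of 15 B lineage genes was 324 FPKM in WT replicate 1, 55 in WT replicate 2, 1730.2 in KO replicate 1 and 2654 in KO replicate 2. In the B lineage list 14 of 15 were above WT replicate 1 in both KO libraries, against 48.5% of all genes. Vpreb1 and Vpreb2, parts of the pre-B cell receptor, differed from WT replicate 1 by 3.81 and 4.27, and Vpreb3 by 2.02. Klf1, a transcription factor of red cell precursors, was at 26.4 FPKM in WT replicate 1, 0.61 in WT replicate 2, 49.9 in KO replicate 1 and 94.7 in KO replicate 2. No marker of these lists was at 0 in a library other than WT replicate 2. Neutrophil genes went the other way. Of all 13848 genes tested, 4937 were lower in both KO libraries than in WT replicate 1. In the list for the early stages 9 of 10 were lower in both KO libraries, with sums of 33721, 94.5, 23129 and 21956 FPKM in WT replicates 1 and 2 and KO replicates 1 and 2. In the list for the late stages 8 of 10 were lower, with sums of 145607, 278, 56160 and 47024 FPKM in the same order. The 15 stem cell genes had medians of -0.04 in KO replicate 1 and -0.08 in KO replicate 2. Single genes ranged from -2.97 to 0.99 in KO replicate 1 and from -3.50 to 0.85 in KO replicate 2. Lists of monocyte and macrophage genes had medians of 0.52 and 0.49, of T and NK cell genes -0.19 and -0.68, and of megakaryocyte genes 0.49 and -0.41. The part of these cell types in the mitosis gene values was not tested.

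**Figure D5:**
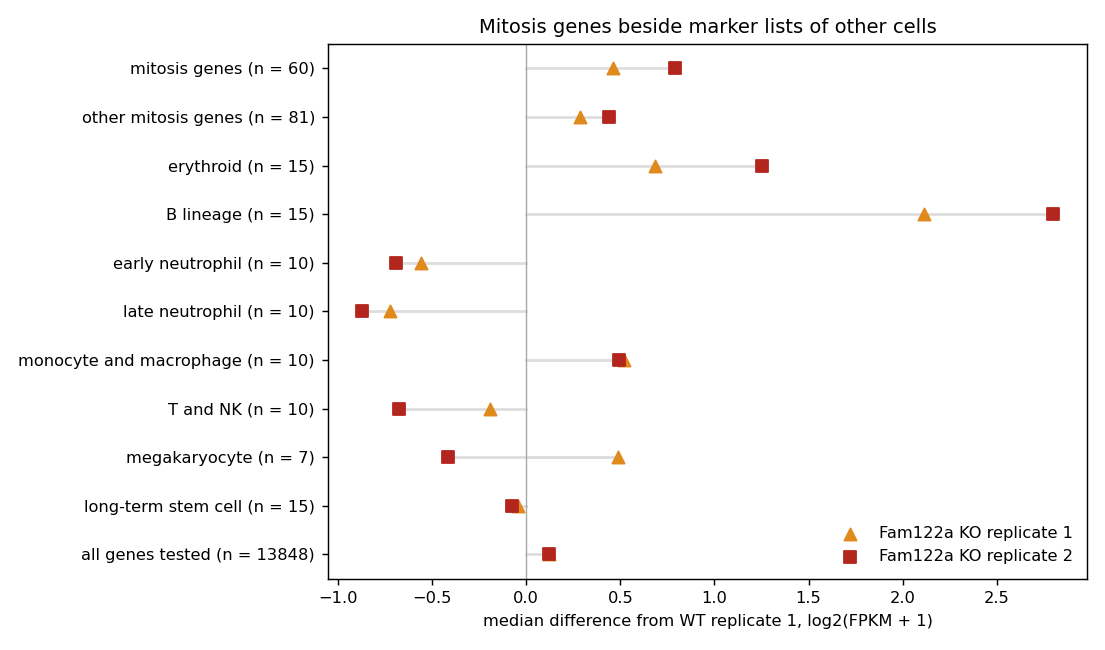
Median difference from WT replicate 1 in log2(FPKM + 1), for each KO library, of the 60 mitosis genes, the other 81 mitosis genes, the cell type marker lists and all genes tested. B lineage and erythroid markers have larger medians than the mitosis genes, at 2.11 and 2.80 and at 0.69 and 1.25, and neutrophil markers lie below 0.

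Of the 60 genes, 17 share exonic bases with another gene, 14 of them with one on the opposite strand. Ncapd2, with the largest difference, shares 3.78% of its exonic bases with Scarna10 and 3.75% with Gm28967, both on its own strand. Reads from shared stretches cannot be assigned to one partner by position. The library kit does not mark strand, so partners on opposite strands cannot be told apart either. The shared part was 29.3% of the exonic bases of Kif20a (with Cdc23), 22.8% of those of Ube2c (with Tnnc2), 15.1% of those of Kif4 (with Pdzd11), 13.4% of those of Ncapg (with Lcorl), 12.5% of those of Ccna2 (with Exosc9) and 11.1% of those of Prc1 (with Rccd1).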

How the data were processed

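The deposited table gives 1 value per feature and library and no unit; the authors' values were taken as FPKM because low values are multiples of a step that falls with gene length, with 84.3% to 91.3% of the low genes checked within 0.1 of a whole fragment. STAR 2.7.1a, HISAT2 2.1.0, GRCm38.p5 and mm10 are named in the submitters' processing notes, without roles. Depth is known only as implied fragments. The 4 libraries were made with SMART-Seq v4, per the labels. Of 87703 features, 35791 assembled ones without Ensembl identifiers were left out of all fits.

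Genes with at least 1 FPKM in at least 2 libraries were fitted with limma 3.58.1 (intensity trend, R 4.3.3) on log2(FPKM + 1); all 60 genes passed in both fits. A count test was the plan only for counts. The fit was also run on simulated data in which every library, WT included, was drawn from the mean and spread of the KO pair. That run held no library like WT replicate 2 and no WT spread, so it cannot vouch for these fits. Alternatives changed the pseudocount, filter, scaling, libraries and replicate block. Members and lists were chosen with earlier results of these data known. Values are printed for the largest, smallest and most abundant member of each group and for fixed key genes, 37 in all; further values given for Kif14, Kif23 and the genes high in WT replicate 2 were chosen after they were seen. Replicates are separate pools of 3 animals. Promoters came from RefSeq (GRCm38.p6), overlaps from GENCODE M21; 11 genes had no matched window.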

Additional observations from a re-analysis of the deposited data

How the results depend on the processing

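Against WT replicate 1, limma called 0 of the 60 genes on the deposited scale, 14 with equal summed FPKM, 1 (Mki67) with equal median FPKM and 2 (Mki67 and Cenpf) with no filter on low values, and 0 with quantile normalization, a pseudocount of 0.1 or a filter of 5 FPKM. Their median difference lay between 0.46 and 0.86 over these settings and over leaving out either KO library. With all 4 libraries limma called 0 on the deposited scale. When 1 library was left out it called between 0 and 57, the 57 without WT replicate 1. Of these 57, 56 were higher and 1, Kif14, was lower. In that fit limma also called 57.4% of all 13875 genes higher and 3155 genes lower. WT replicate 2 stood alone on the WT side there, so the 57 calls rest on that library and were not limited to this list. With the replicate number as a block limma called 0 of the 60, with a lowest adjusted p of 0.157. Same-numbered libraries shared little deviation (r = 0.06 over 18214 genes, 2 pairs). Because WT replicate 2 was unlike the rest in content, this value cannot show whether the numbers pair the libraries. Of the members named with values, Mad2l1 in the 4-library fit lay between -0.19 (without WT replicate 2) and 1.83 when 1 library was left out, Cdk1 against WT replicate 1 between -0.26 (without KO replicate 2) and 0.49; Mad2l1 reversed to 0.038 with equal summed FPKM, and Cenpk to -0.028 and Nuf2 to -0.0087 with quantile normalization; the cause was not tested. The median difference of KO replicate 2 from KO replicate 1 was 0.28 at a pseudocount of 0.1, 0.31 with equal summed FPKM, 0.22 with equal median FPKM and 0.25 with quantile normalization. With 1 usable WT pool, the spread between WT animals is not measured.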
